A study of Mus musculus with 20 samples.

Results

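Footpad skin of Tabby mice was compared with footpad skin of wild-type (WT) mice in the first postnatal week, at postnatal days 3 and 5 (P3 and P5). The 8 arrays used, of 20 in the series, were all those whose titles name P3 or P5: 2 of Tabby P3, 2 of WT P3, 2 of Tabby P5 and 2 of WT P5. The other 12 hold both genotypes at E17.5, at P1 and in adults at postnatal day 56, and served only for comparison. All groups carried the strain label C57BL6/J, none had a treatment in the labels, and the replicates were labelled as biological. The labels give no sex, no name for the Tabby allele and no number of animals per sample. Per its title, the study was about ion channels of eccrine sweat glands.

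Tabby is a mutation of the X-linked gene for ectodysplasin A, a ligand of the tumour necrosis factor family that signals through its receptor Edar and the adaptor Edaradd to NF-kappaB. Skin uses this pathway to start hair placodes, teeth and sweat glands. In mice the footpads are where eccrine sweat glands lie, and Tabby footpads lack them. In WT pups the gland buds formed around birth grow down as ducts and coil into secretory segments during the days sampled here.

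Cy3 carried the footpad sample and Cy5 a reference that was the same throughout, RNA of a pool of mouse cell lines mixed with RNA of embryonic stem cells. Values are log2 ratios of footpad over reference, so 1 unit is a 2-fold difference. Probes were kept if 2 or more of the 8 arrays had a Cy3 signal that the scanner software rated well above background, and 29648 of 42006 probes were tested. Per array, 27703 to 29287 probes were well above background in Cy3, and replicates of a group correlated at r = 0.984 to 0.986 across tested probes, which are not independent. P3 was 1 slide and P5 another, both scanned on the same day, with Tabby arrays at positions 3 and 4 and WT arrays at 1 and 2, so genotype and position on the slide cannot be told apart. The small number of arrays, 2 a group, limits the precision.

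The files name each probe by an identifier starting with Z and by its sequence of 60 bases, and state no gene or genome position for it. No check of the Tabby gene itself, of cell type markers or of ion channel genes could therefore be made, and the results below are about probes. Whole footpad skin was used, so fewer cells of a type and less RNA per cell cannot be told apart.

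The comparison asked which footpad transcripts differed between Tabby and WT at these ages, over both stages together. Of the probes tested, 2431 (8.20%) passed an adjusted p under 0.05 (limma, Benjamini-Hochberg), with stage as a block. In Tabby 1245 of them (4.20%) were lower and 1186 (4.00%) higher. Most of these differences were small: the median was 1.23-fold among the lower probes and 1.22-fold among the higher ones. Large differences were mostly falls. At 2-fold or more, 136 probes were lower and 14 higher in Tabby, so that 90.7% were lower, against 51.2% at any size. The share at 2-fold or more was 76.3% in the Cy3 channel alone (164 lower, 51 higher). It was 84.8% with no filter on dim probes, 88% with normexp and loess and 91.6% with median-centred arrays. The share held better than the set of probes: with normexp and loess 66 were lower and 9 higher, and 55 of the 66 were among the 136. The share at any size was 58% with median-centred arrays, 59.2% with all 20 arrays in 1 model and 57.3% to 70.9% with 1 array left out, the highest without WT P3 replicate 1. At 4-fold or more the counts were 41 lower and 2 higher, and at 8-fold or more 21 lower and 2 higher, all by the fitted ratio, which is no measured fold where a group was below background. An adjusted p under 0.01 left 84 lower and 17 higher. The total rested on every array: it was 848 without Tabby P3 replicate 1, 772 without Tabby P3 replicate 2, 648 without Tabby P5 replicate 1 and 551 without Tabby P5 replicate 2. It was 333 without WT P3 replicate 1, 374 without WT P3 replicate 2, 369 without WT P5 replicate 1 and 351 without WT P5 replicate 2. At 2-fold or more, 78 to 113 probes were lower and 7 to 16 higher in Tabby with 1 array left out; the lowest of these counts of lower probes, 78 and 82, came without WT P5 replicate 2, without WT P5 replicate 1 and without WT P3 replicate 1.

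Both Tabby arrays lay below both WT arrays at P3 and again at P5 for 3771 of the 29648 probes (12.7%), and above them for 4086 (13.8%). Separation of the arrays alone therefore did not favour falls, while size did.

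The falls of 2-fold or more were falls of the footpad channel. Over these 136 probes the Cy3 signal differed by a median of -1.52 in log2 (Tabby minus WT) and the Cy5 signal of the reference by -0.01. These probes were dim: the median log2 Cy3 signal was 5.97 in Tabby P3 and 7.68 in WT P3, against 9.84 and 9.85 over all tested probes. At P5 it was 6.17 in Tabby and 8.48 in WT, against 9.98 and 9.92. The median log2 ratio was -0.33 in Tabby P3 against 0.98 in WT P3, and -0.49 in Tabby P5 against 1.46 in WT P5. By their medians, these probes thus stood below the reference in Tabby and above it in WT at both ages. For 82 of the 136 probes the Cy3 signal was well above background on all 8 arrays, and for 30 it was so on no Tabby array. Those 30 passed the filter through WT arrays alone. In 16 of them the Cy5 signal differed by more than 0.5 times the ratio difference. The 14 rises of 2-fold or more differed by 1.21 in Cy3 and 0.04 in Cy5.

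The 15 largest falls with separated arrays at both stages had fitted differences of -3.44 to -7.06 in log2. All but 1 were well above background on the 4 WT arrays, and 8 were so on no Tabby array. For those 8 the fold is given below as a bound, taken in the footpad channel. The WT mean is set against a floor for each Tabby array, the dimmest Cy3 signal rated well above background or, where higher, the probe's own. Such bounds are open to dye bias, because no array had the dyes exchanged. An adjusted p printed beside a bound, for falls and for rises, comes from the fit of the ratio and does not test the bound.

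**Figure D1:**
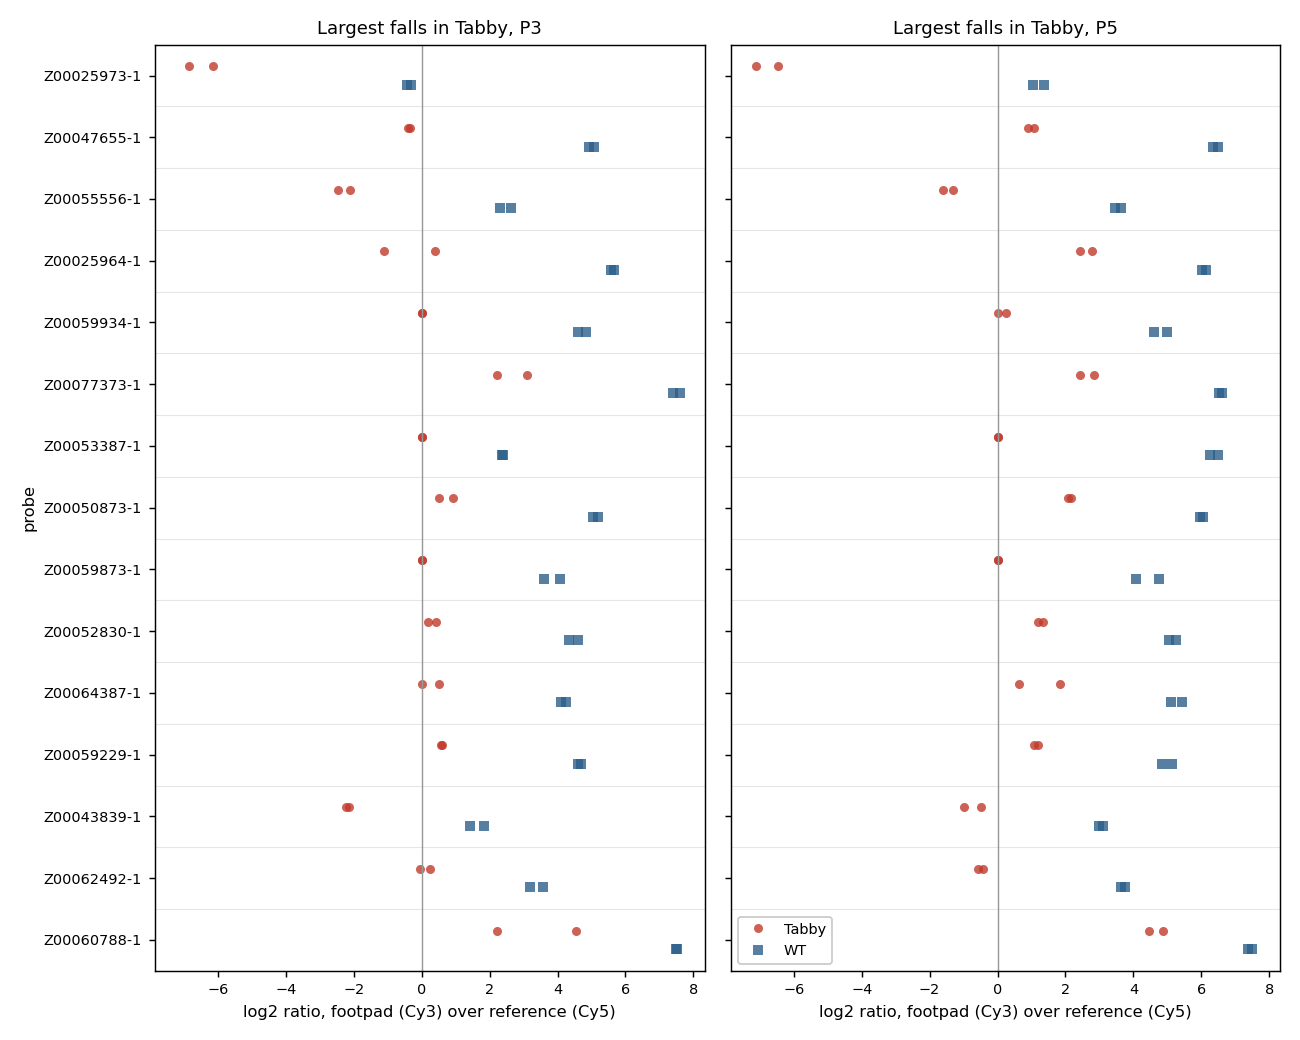
Log2 ratio of footpad over reference on each array (x axis) for the 15 probes with the largest falls in Tabby (y axis), at P3 (left) and P5 (right), with Tabby as circles above WT as squares. The 2 Tabby points of each row lie left of its 2 WT points at both stages, as the rule for picking these probes requires.

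Z00025973-1 had the largest fitted difference of the ratio and is shown for that reason; since its Tabby arrays were not above background, that rank is not a rank of measured folds.
Z00025973-1: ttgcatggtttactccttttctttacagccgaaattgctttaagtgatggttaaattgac
Its log2 ratio was -6.14 and -6.85 on the Tabby P3 arrays, against -0.31 and -0.42 on the WT P3 arrays. At P5 it was -6.46 and -7.13 in Tabby, against 1.04 and 1.35 in WT. All 4 Tabby arrays were far below all 4 WT arrays, and none of the Tabby signals was well above background. The fall was by at least 9.45-fold (n = 4 arrays each, limma adjusted p = 0.00109).

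Among the probes that Tabby footpads did not raise above background, Z00055556-1 had -2.13 and -2.46 in Tabby P3, against 2.64 and 2.30 in WT P3. At P5 the values were -1.61 and -1.32 in Tabby, against 3.65 and 3.46 in WT. Tabby was at least 6.24-fold lower (limma adjusted p = 1.61e-05). Z00043839-1 behaved alike, at -2.16 and -2.22 in Tabby P3 against 1.84 and 1.42 in WT P3, and at -1 and -0.50 in Tabby P5 against 3.10 and 2.98 in WT P5. Tabby was at least 2.35-fold lower in that probe (limma adjusted p = 8.51e-05). The pair has in common that the WT ratio was above the reference at both stages and the Tabby ratio below it.

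For 3 of the 8 probes, Z00059934-1, Z00053387-1 and Z00059873-1, the scanner software had replaced both channels on Tabby arrays. This gives a log2 ratio of exactly 0 and no order between such arrays. Zeros set this way carry no spread between arrays into the fit that gives the adjusted p. Z00059934-1 had 0.00 and 0.00 in Tabby P3, against 4.83 and 4.60 in WT P3, and 0.00 and 0.26 in Tabby P5, against 4.99 and 4.61 in WT P5. Tabby was at least 7.09-fold lower (limma adjusted p = 7.23e-06). Z00059873-1 had 0.00 on all 4 Tabby arrays, against 4.08 and 3.59 in WT P3 and 4.76 and 4.08 in WT P5, and was at least 2.06-fold lower in Tabby (limma adjusted p = 0.000375). Both had about the same WT ratio at P3 and at P5, unlike Z00053387-1. That probe stood at 0.00 on all 4 Tabby arrays, against 2.40 and 2.35 in WT P3 and 6.49 and 6.27 in WT P5. It was at least 2.20-fold lower in Tabby (limma adjusted p = 0.0283), and its pooled call was lost with any 1 of the 8 arrays left out, with adjusted p of 0.05 to 0.075. The lowest of these came without Tabby P3 replicate 2 and the highest without WT P5 replicate 1.

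The other 2 of the 8, Z00064387-1 and Z00059229-1, were lower in Tabby by at least 4.10-fold for the first and at least 2.10-fold for the second. In Z00064387-1 one Tabby P3 spot was also replaced, and the values were 0.00 and 0.52 in Tabby P3 against 4.25 and 4.09 in WT P3, and 0.63 and 1.85 in Tabby P5 against 5.42 and 5.10 in WT P5 (limma adjusted p = 0.00202). Z00059229-1 had 0.60 and 0.56 in Tabby P3 against 4.69 and 4.60 in WT P3, and 1.19 and 1.09 in Tabby P5 against 4.85 and 5.13 in WT P5 (limma adjusted p = 5.22e-06). Lack of overlap between the genotypes at either stage was a condition for picking both probes.

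Another 4 of the 15 were measurable on all Tabby arrays, so that their reduction is a value and not a bound. The clearest was Z00047655-1, which overlaps Z00025964-1 in sequence. The pair is shown because both probes carry 1 stretch of bases and both fell. Capitals mark the 32 bases they share.
Z00025964-1: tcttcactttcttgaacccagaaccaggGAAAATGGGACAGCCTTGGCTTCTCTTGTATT
Z00047655-1: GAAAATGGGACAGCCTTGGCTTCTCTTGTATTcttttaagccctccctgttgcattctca
Z00047655-1 had -0.41 and -0.35 in Tabby P3, against 5.07 and 4.93 in WT P3, and 0.88 and 1.08 in Tabby P5, against 6.50 and 6.34 in WT P5. The difference was -5.41 ± 0.07 (SE, limma adjusted p = 4.34e-07), a 42.5-fold reduction. Z00025964-1 had 0.38 and -1.12 in Tabby P3, against 5.66 and 5.56 in WT P3, and 2.41 and 2.78 in Tabby P5, against 6.13 and 6.02 in WT P5. Its difference was -4.73 ± 0.57 (SE, limma adjusted p = 0.0124), with 1 Tabby P3 array not well above background. Both probes were higher at P5 than at P3 in Tabby and in WT, and at both stages WT lay far above Tabby. The Cy5 signal was lower on the Tabby arrays as well. In Z00025964-1 the log2 difference was -7.84 in Cy3 and -3.11 in Cy5, and in Z00047655-1 it was -6.35 in Cy3 and -0.94 in Cy5; the part of Cy5 in the ratio was not tested. At none of the other 3 stages did either probe pass the test.

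Z00050873-1 and Z00052830-1 followed the same course. Z00050873-1 had 0.92 and 0.52 in Tabby P3 against 5.05 and 5.18 in WT P3, and 2.16 and 2.08 in Tabby P5 against 6.06 and 5.97 in WT P5. The difference was -4.15 ± 0.13 (SE, limma adjusted p = 5.47e-05), 17.7-fold. Z00052830-1 had 0.42 and 0.17 in Tabby P3 against 4.59 and 4.34 in WT P3, and 1.19 and 1.33 in Tabby P5 against 5.27 and 5.04 in WT P5, a difference of -4.03 ± 0.10 (SE, limma adjusted p = 1.61e-05), 16.3-fold. The Cy5 signal was lower on the Tabby arrays here too, with -1.83 for Z00050873-1 and -1.68 for Z00052830-1, and in 6 of the 15 falls it differed by more than 1 in log2. In both probes, the ratio was higher at P5 than at P3 in Tabby and in WT, and the genotype difference did not pass the test of a change between stages (limma adjusted p = 0.387 and 0.583).

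Z00077373-1 had 3.11 and 2.22 in Tabby P3 against 7.60 and 7.38 in WT P3, and 2.84 and 2.43 in Tabby P5 against 6.53 and 6.62 in WT P5. Its difference was -4.38 ± 0.26 (SE, limma adjusted p = 0.00113). Z00062492-1 had 0.24 and -0.06 in Tabby P3 against 3.18 and 3.56 in WT P3, and -0.43 and -0.58 in Tabby P5 against 3.62 and 3.75 in WT P5 (difference -3.74 ± 0.20, limma adjusted p = 0.000781). Of these 2 probes only some Tabby arrays were well above background, 3 of 4 for Z00077373-1 and 2 of 4 for Z00062492-1. The smallest of the 15 falls was that of Z00060788-1, with 4.55 and 2.23 in Tabby P3 against 7.50 and 7.51 in WT P3, and 4.86 and 4.46 in Tabby P5 against 7.36 and 7.49 in WT P5. Its 2 Tabby P3 arrays were far apart. The difference was -3.44 ± 0.53 (SE, limma adjusted p = 0.0207), and the adjusted p was 0.0686 without WT P3 replicate 1, 0.0649 without WT P3 replicate 2, 0.0566 without WT P5 replicate 1, 0.0585 without WT P5 replicate 2 and 0.0579 without Tabby P5 replicate 2.

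With normexp correction and loess in place of the scanner software's ratio, the differences of 10 of the 15 were smaller by more than 1.5 times. They then ran over -1.16 to -5.28, and all 15 still passed the test. That setting changes the background correction and the normalization together, and which of them matters was not tested.

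Rises of this size were fewer, and most were small apart from a pair of probes. Their sequences are shown because they were the only rises of 2-fold or more with a WT signal above background on no array.
Z00016441-1: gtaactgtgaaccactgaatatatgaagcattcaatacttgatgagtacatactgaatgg
Z00017323-1: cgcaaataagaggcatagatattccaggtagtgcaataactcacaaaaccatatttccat
Z00016441-1 had 0.80 and 0.70 in Tabby P3, against -7.30 and -9.44 in WT P3, and 0.89 and 0.93 in Tabby P5, against -9.14 and -9.43 in WT P5. All 4 Tabby arrays and no WT array had a Cy3 signal well above background, and Tabby was at least 40.2-fold higher (limma adjusted p = 0.000375). Z00017323-1 had -1.27 and -1.10 in Tabby P3, against -5.08 and -4.91 in WT P3, and -1.08 and -0.94 in Tabby P5, against -4.77 and -4.84 in WT P5. Tabby was at least 2.25-fold higher (limma adjusted p = 1.91e-06). Both were present in Tabby and not above background in WT at both stages.

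**Figure D2:**
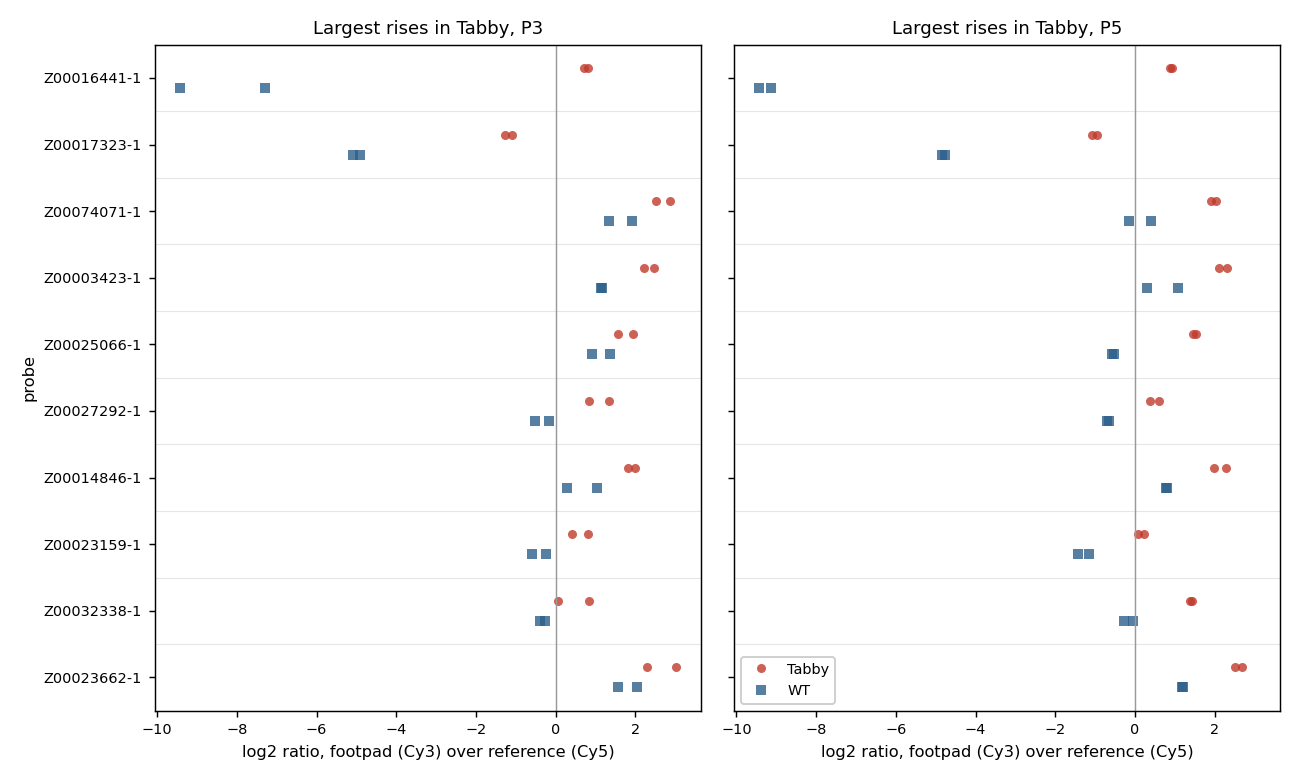
Log2 ratio of footpad over reference on each array (x axis) for the 10 probes with the largest rises in Tabby (y axis), at P3 (left) and P5 (right), with Tabby as circles above WT as squares. Apart from the first 2 rows, the fitted difference over both stages is 1.13 to 1.46 in log2, and the smallest difference of means at P3 is 0.63.

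The other 8 of the 10 largest rises differed by 1.13 to 1.46 in log2. Z00074071-1 had 2.88 and 2.53 in Tabby P3 against 1.91 and 1.34 in WT P3, and 2.04 and 1.90 in Tabby P5 against 0.41 and -0.16 in WT P5, a difference of 1.46 ± 0.23 (SE, limma adjusted p = 0.0214). Z00027292-1 had 1.33 and 0.83 in Tabby P3 against -0.52 and -0.16 in WT P3, and 0.38 and 0.59 in Tabby P5 against -0.65 and -0.69 in WT P5, a difference of 1.29 ± 0.14 (SE, limma adjusted p = 0.011). In Z00023159-1 the values were 0.82 and 0.42 in Tabby P3 against -0.58 and -0.24 in WT P3, and 0.23 and 0.08 in Tabby P5 against -1.15 and -1.44 in WT P5 (difference 1.24 ± 0.15, limma adjusted p = 0.0122). In the last 2 of these probes the ratio was above the reference in Tabby and below it in WT at both stages.

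In Z00003423-1 the rise of 1.35 ± 0.18 (SE, limma adjusted p = 0.0152) lay in the reference channel. Its Cy3 signal differed by 0.19 in log2 and its Cy5 signal by -1.15, and the Cy3 channel alone gave 0.11 (limma adjusted p = 0.767). The remaining 4 were Z00025066-1 (1.33 ± 0.30), Z00014846-1 (1.29 ± 0.16), Z00032338-1 (1.17 ± 0.22) and Z00023662-1 (1.13 ± 0.21, each with its SE), with limma adjusted p between 0.0141 and 0.0448. For Z00014846-1, 3 of the 4 WT arrays were not well above background. Only Z00016441-1, Z00017323-1, Z00027292-1 and Z00023159-1 of the 10 kept an adjusted p under 0.05 without each array in turn. Z00003423-1 lost its call without WT P3 replicate 1 or 2 (adjusted p = 0.0523 in each), and Z00014846-1 without WT P5 replicate 1 (0.0502) or 2 (0.0528). Without 6 of the 8 arrays the call was lost for Z00023662-1, at most at an adjusted p of 0.0888 (without WT P3 replicate 1), and likewise for Z00074071-1, at most at 0.0677 (without WT P3 replicate 2). It was lost without 7 of the 8 for Z00032338-1, at most at 0.0845, and without each of the 8 for Z00025066-1, at most at 0.107 (both without WT P5 replicate 1). With normexp and loess the difference of Z00014846-1 was 0.24, that of Z00032338-1 0.39 and that of Z00003423-1 0.21 (limma adjusted p = 0.118 for the last). Z00032338-1 also lost its call in the Cy3 channel alone (limma adjusted p = 0.0725) and with all 20 arrays in 1 model (0.166). With no filter on dim probes the limma adjusted p was 0.0517 for Z00032338-1 and 0.0762 for Z00025066-1. With stage and replicate number as the block, 7 of the 10 rises and 3 of the 15 largest falls no longer passed.

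Within single stages fewer probes passed. With 4 group means fitted to the 8 arrays, 195 (0.658%) passed at P3, 143 lower (0.482%) and 52 higher (0.175%) in Tabby, and 583 (1.97%) at P5, 398 lower (1.34%) and 185 higher (0.624%). On the P3 arrays alone 11 passed (0.0371%), 10 lower (0.0337%) and 1 higher (0.00337%), and on the P5 arrays alone 103 (0.347%), 88 lower (0.297%) and 15 higher (0.0506%). The share lower in Tabby at P3, 73.3%, was 54.8% with the arrays brought to 1 scale (657 probes), 56.9% with normexp and loess (2421), 60.2% in the deposited value table (764) and 60.7% in the Cy3 channel alone (402). It was 50.3% with the strict filter on both channels (1787) and 53.3% with no filter on dim probes (999). At P5 it was 68.3%, 54% with normexp and loess (1837) and 58.5% with the strict filter (1101). The 2 slides share no array, but this fit shares its spread between them. Of the 143 probes that fell at P3, 137 had the same sign at P5, and of the 398 that fell at P5, 350 had the same sign at P3; 96 passed at both. With each slide fitted alone, all 10 falls of P3 had the same sign at P5 and 79 of the 88 falls of P5 had the same sign at P3, and 7 passed on both. Across all tested probes the differences at P5 and P3 correlated at r = 0.448 (rho = 0.354), as a description, since the slides share the positions of the genotypes. Of 732 probes with a 2-fold or larger difference at either stage, 549 (75%) had the same direction at both. This share and the counts of same sign above are descriptions, with no share over all tested probes to set beside them. Each of these counts at P3 and P5 moved with single arrays: between 17 (without WT P3 replicate 1) and 89 (without either Tabby P5 replicate) passed at P3, and between 126 (without WT P5 replicate 1) and 322 (without either Tabby P3 replicate) at P5.

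**Figure D3:**
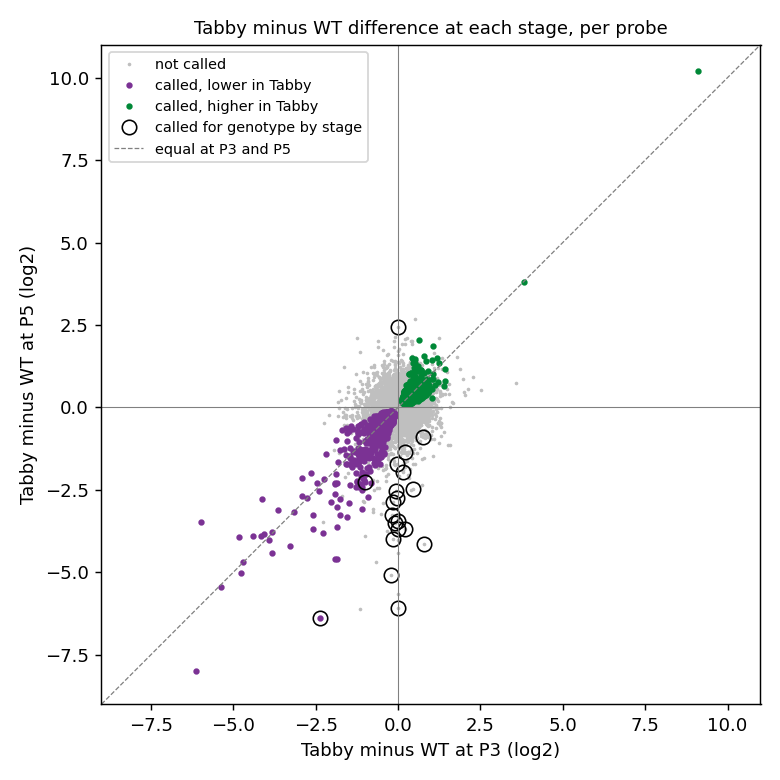
Tabby minus WT in log2 at P3 (x axis) and at P5 (y axis) for each tested probe; colours mark probes called over both stages, open circles those called for genotype by stage, and the dashed line equal differences. Fitted differences reach -7.99 at P5, and 15 of the 20 circled probes have a P3 difference within 0.25 of 0.

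A change of the genotype difference between the stages was tested directly, as genotype by stage. Of the probes tested, 20 passed (0.0675%, limma adjusted p under 0.05), beside 3723 at an unadjusted p under 0.05. For 19 of them (0.0641%) Tabby minus WT was lower at P5 than at P3, and for 1 (0.00337%) higher; the share of 95% was 70% with no filter on dim probes (14 of 20), 75.8% with normexp and loess (99 probes) and 77.8% in the Cy3 channel alone (36), and 66.7% at the lowest with 1 array left out, without Tabby P3 replicate 2. In 15 of the 20 the genotypes differed by less than 0.25 in log2 at P3. The WT mean moved by a median of 3.39 between P3 and P5, and the Tabby mean by 0.01. In most of them the WT ratio was thus higher at P5 than at P3, while the Tabby ratio was about level. Of the 20, 2 also passed over both stages pooled, and 13 were well above background in Cy3 on all 4 P3 arrays. Z00053032-1, Z00054133-1, Z00026330-1, Z00040386-1 and Z00077017-1 were so only on the 2 WT P5 arrays, and Z00072860-1 only on the 2 Tabby P5 arrays. These probes passed the filter through those arrays alone, so their direction is no support for the split of 19 and 1. In 5 of the 20, both channels had been replaced on P3 arrays, on all 4 of them in 4 probes. With such spots set to missing, an alternative chosen after seeing the data, 12 probes passed, all with a lower difference at P5. Between 5 (without either WT P3 replicate) and 12 (without WT P5 replicate 1) passed with 1 array left out, and 6, 6, 11, 9 and 7 without Tabby P3 replicate 1, Tabby P3 replicate 2, WT P5 replicate 2, Tabby P5 replicate 1 and Tabby P5 replicate 2.

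**Figure D4:**
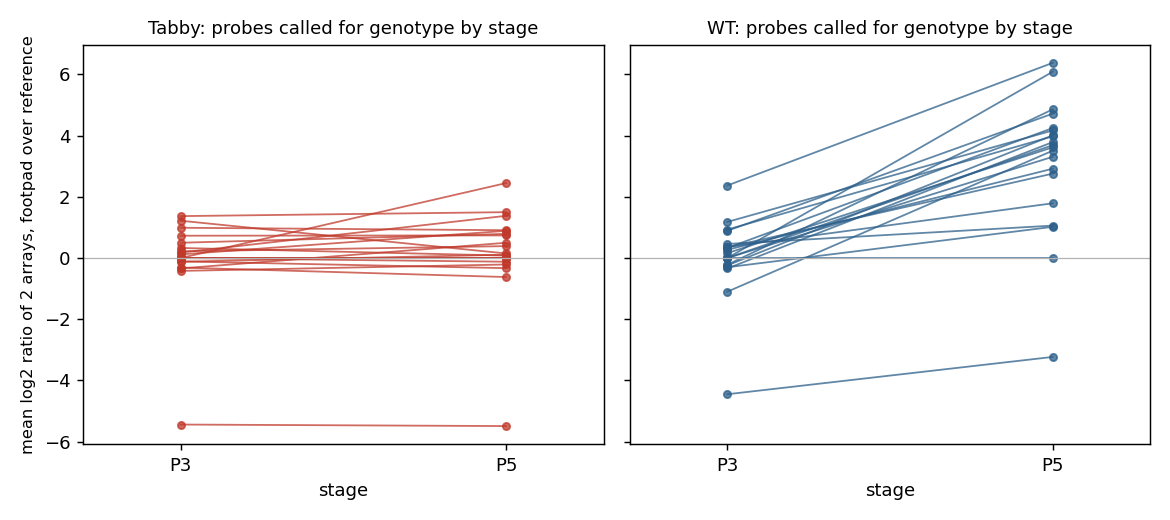
Mean log2 ratio of the 2 arrays (y axis) at P3 and P5 (x axis) for the 20 probes called for genotype by stage, with Tabby on the left and WT on the right; each line is 1 probe. Most WT lines climb, by a median of 3.39, and Tabby lines stay near level, with a median of 0.01.

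The probe of this group measured on all 8 arrays with the smallest adjusted p was Z00056322-1, and its sequence is shown for that reason.
Z00056322-1: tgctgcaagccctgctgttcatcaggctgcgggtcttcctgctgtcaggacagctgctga
It had -0.07 and -0.17 in Tabby P3, against -0.33 and -0.35 in WT P3, and 0.21 and 0.02 in Tabby P5, against 3.88 and 3.69 in WT P5. The genotypes were close together at P3 and far apart at P5, where WT alone was high. The difference changed by -3.90 ± 0.13 (SE, limma adjusted p = 0.0014). Z00053032-1 and Z00054133-1 had 0.00 on all 4 P3 arrays and both Tabby P5 arrays, against 6.09 and 6.09 in WT P5 for the first and 3.68 and 3.71 for the second. These zeros are replaced spots, so only the WT P5 arrays measured either transcript. With normexp and loess the change was -2.11 for Z00053032-1, against -6.09 as fitted. For Z00054133-1 it was -1.87, against -3.69 as fitted. The probe that ran the other way, Z00072860-1, had 2.41 and 2.49 in Tabby P5, against 0.00 and 0.00 in WT P5, and 0.00 on all P3 arrays. With normexp and loess its change was 0.33 (limma adjusted p = 0.172), against 2.45 as fitted (limma adjusted p = 0.000589). Z00053387-1, described above, moved by -4.01 ± 0.11 (SE, limma adjusted p = 0.000589), with a limma adjusted p of 0.429 when all 20 arrays were fitted in 1 model. Its change was -2.15 with normexp and loess.

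Some of the largest falls also passed at other ages. In a model of all 20 arrays, 3 of the 15 also fell in adult Tabby footpads, 3 at P1 and 1 at E17.5. Over all tested probes, 6.24% were lower in adult Tabby footpads, 0.0573% at P1 and 0.0371% at E17.5. Of the 15, 12 differed by less than 1 in log2 in adults, 11 at P1 and 9 at E17.5. Z00025973-1 differed by -3.40 at P1 (limma adjusted p = 0.000297) and by -6.19 in adults (limma adjusted p = 5.35e-08), but by 0.18 at E17.5. Z00062492-1 differed by -2.51 at P1 (limma adjusted p = 0.0372) and by -3.26 in adults (limma adjusted p = 0.000105). Z00059229-1 differed by -3.95 in adults (limma adjusted p = 2.45e-05), and by -2.33 at P1 (limma adjusted p = 0.0503). Z00077373-1 ran the other way in age: it differed by -5.93 at E17.5 (limma adjusted p = 2.39e-06) and by -6.16 at P1 (limma adjusted p = 1.54e-06), and by -0.07 in adults. The remaining falls, Z00047655-1 and Z00055556-1 among them, passed at none of the other 3 stages.

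Over all 1245 probes that fell at P3 and P5, the sign was the same at P1 for 88.5%, against 48.7% of all tested probes, with 14 passing there. In adults it was the same for 65.7%, against 43.9%, with 315 passing in the same direction and 18 in the opposite one. At E17.5 it was the same for 69.9%, against 50.5%, with 6 passing. Of the 1186 probes that rose, 84% had the same sign at P1 (51.3% of all tested), 73.9% in adults (55.9%) and 59.2% at E17.5 (49.5%). In the same model 0.0708% of tested probes passed at P1 (0.0573% lower, 0.0135% higher in Tabby), 10.4% in adults (6.24% lower, 4.14% higher) and 0.0540% at E17.5 (0.0371% lower, 0.0169% higher). Genotype held the same slide positions on every slide. The P1 slide was scanned on the same day as those of P3 and P5, and the E17.5 and adult slides on other days. The part of position and of scan day in the shared signs was not tested.

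Probes that fell and probes that rose, most of them by little, differed in their sequence content. The hexamer AATAAA, the usual polyadenylation signal at the end of a transcript, was present on the printed strand in 14.9% of the probes that fell and in 3.04% of those that rose, against 7.58% of all tested probes. On the other strand it was present in 3.21%, 2.87% and 3.14%. Among the 136 falls of 2-fold or more it was present in 8.09%, close to the share of all probes. The median GC content was 43.3% in the probes that fell, 45% in those that rose and 45% in all tested. The part of probe position along the transcript in the small differences was not tested.

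Probes that shared a run of bases mostly had the same sign. A shared run does not show that both members read 1 RNA. Among tested probes, 721 pairs shared a run of at least 30 bases, and 90 of these pairs held a called probe. Both members had the same sign in 88 of the 90 (97.8%), against 81.7% of all 721 pairs. In 41 pairs both members were called, all 41 in the same direction. Of the 7 pairs with a fall of 2-fold or more, all had the same sign and 6 had both members called. Such members share sequence and arrays and are no independent support. In a pair that shares 56 bases, Z00022872-1 and Z00055094-1 both differed by -1.60 (limma adjusted p = 0.0138 and 0.0156).

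RefSeq windows around gene starts (GRCm38.p6) allowed a few probes to be placed. Of the probes tested, 180 matched such a window exactly over all 60 bases, and 8 of these were called (4.44%, against 8.20% of all tested), 2 lower and 6 higher in Tabby. A match at the genome does not say which transcript a probe reads. The largest difference among the 8 was that of Z00055649-1, which lies from 147 to 88 bases before the start of Aqp5, on its strand. Aqp5 encodes a water channel of secretory epithelia, sweat glands among them, but the probe lies outside its annotated transcript, and no level of Aqp5 is given here.
Z00055649-1, chr15:99590881-99590940, plus strand: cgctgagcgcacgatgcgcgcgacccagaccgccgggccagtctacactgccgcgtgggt
Its log2 difference was 0.86, higher in Tabby (limma adjusted p = 0.00763). Next was Z00063945-1, across the start of Cfap410 on chromosome 10 (77978615 to 77978674), with 0.81 (limma adjusted p = 0.0156). Z00064656-1, across the start of Cnn3 on chromosome 3, fell, with -0.32 (limma adjusted p = 0.0376); Cnn3 encodes an actin-binding calponin. These probes were chosen after their values were seen.

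The 2 largest rises shared a course over the series. Z00016441-1 was between 0.70 and 1.09 on the 6 Tabby arrays of P1, P3 and P5, against -7.30 to -9.52 on the 6 WT arrays of those stages. At E17.5 it was -7.33 and -9.08 in Tabby, against 2.10 and -4.87 in WT, and in adults it was -9.09 and -8.81 in Tabby, against -9.86 and -7.82 in WT. It was thus high in Tabby from P1 to P5, high on 1 WT array of E17.5, and low in adults of both genotypes. Z00017323-1 was highest on the same 7 arrays. So was Z00027292-1, another of the 10 largest rises, with 0.30 to 1.33 on those arrays and at most 0.27 on the others. The 3 called probes that ran most opposite to Z00016441-1 over the 20 arrays, picked after the values were seen, were Z00025402-1, Z00064853-1 and Z00031814-1. Z00064853-1 had -0.04 and -0.07 in Tabby P3 against 0.87 and 0.90 in WT P3, and -0.06 and 0.02 in Tabby P5 against 0.72 and 0.64 in WT P5 (limma adjusted p = 0.0026). It was also low, at -0.82, on the E17.5 WT array on which Z00016441-1 was high, against 1.28 on the other. The Tabby pups and 1 WT array thus shared this pattern, and adults of both genotypes were low in Z00016441-1. The labels give no sex, so genotype cannot be told apart from any difference in sex between the groups at P3 and P5.

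**Figure D5:**
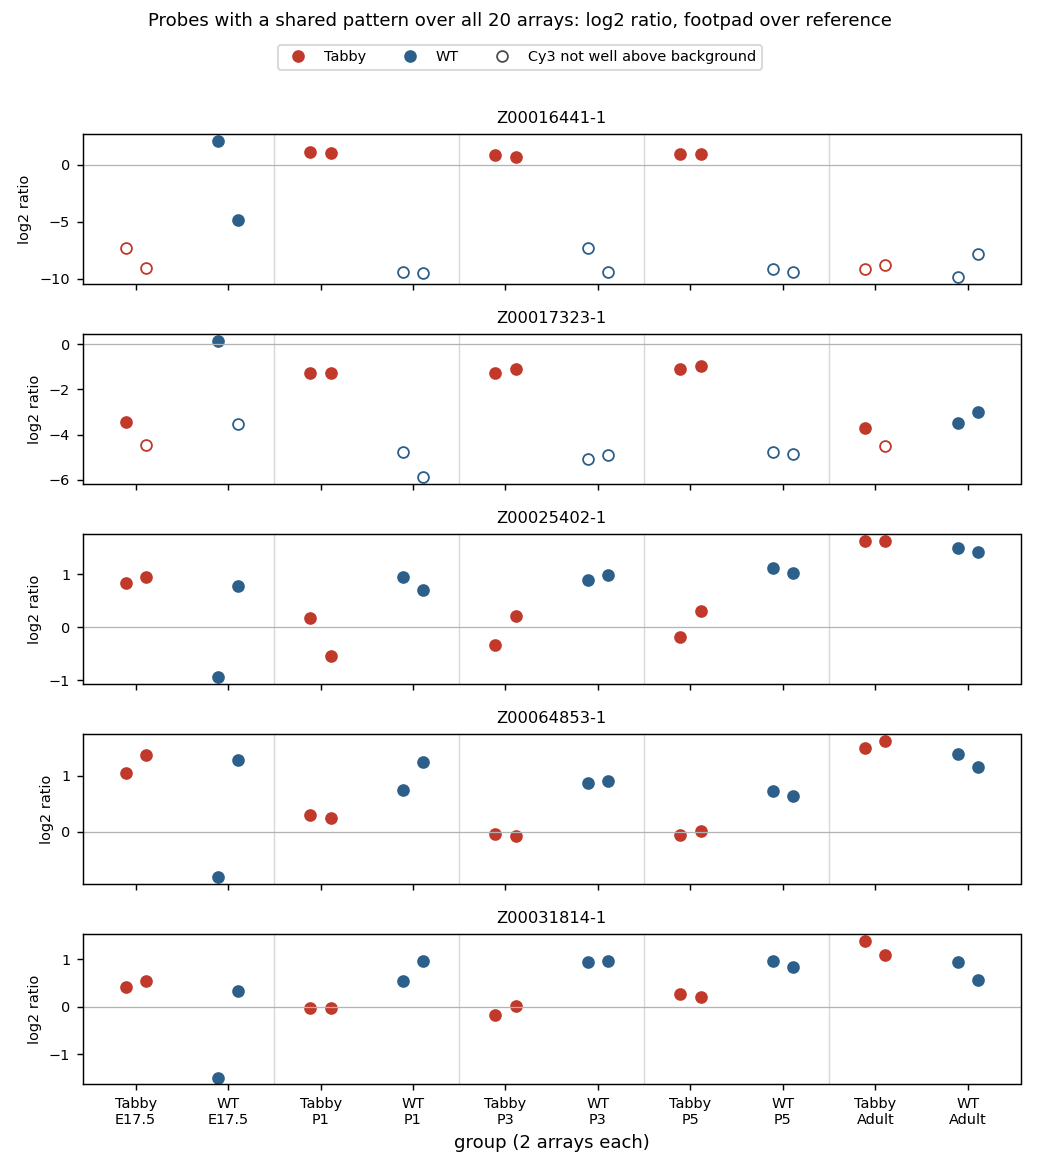
Log2 ratio of footpad over reference (y axis) on all 20 arrays by group (x axis), Tabby left of WT within each stage, for the 2 largest rises and 3 probes of opposite course; open points are not well above background in Cy3. In the first 2 rows the Tabby arrays of P1, P3 and P5 and 1 WT array of E17.5 stand above the rest, and in the last 3 rows they stand below.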

How the data were processed

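Footpad RNA (Cy3) and a reference (Cy5) were hybridised to 20 two-colour arrays, 8 of them Tabby or WT at P3 or P5. Per the file headers, Agilent Feature Extraction 9.5.1.1 was used on the scans; the deposited array files give the mean and processed signal of each dye as an intensity and a ratio of reference over footpad on the log10 scale. The authors also deposited a value table on the log10 scale. Its 25030 probes were matched by spot number; against the array files its values ran as footpad over reference, and 76.9% of its probes differed from them by 1 constant within 0.001 on the 8 arrays. What was done to the other 23.1% and the centring stay unknown, and the column medians were 2.57 to 2.59. It was used as an alternative.

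The deposited log10 ratio was turned to footpad over reference and to log2. Control spots were left out, outlier spots (2 to 11 per array) set to missing, and spots of 1 probe averaged; no spot was saturated in Cy3. Between 5418 and 7123 probe spots per array had both channels replaced by the scanner software, which sets the ratio to 1. Of 29650 probes passing the filter, 2 were missing in a group and 13 of the 29648 tested lacked at least 1 array. limma 3.58.1 (R 4.3.3) fitted genotype and stage (5 residual and 1.73 prior degrees of freedom) and, for single stages and genotype by stage, 4 group means; tests were two-sided, Benjamini-Hochberg adjusted over all probes tested, at 0.05. The P1, E17.5 and adult values come from 1 model of all 20 arrays. Named probes were, among those called whose Tabby and WT arrays did not overlap at either stage, the 15 largest falls and 10 largest rises, and the 5 of smallest adjusted p for genotype by stage. Lists of genes and cell type markers had been fixed, but the files pair no probe with a gene. A match to a window around a gene start was not taken as such a pairing, so 0 of the lists were used. The members and lists were chosen with earlier results of these data known. Sequences are those of the array files, and windows around gene starts those of RefSeq (GRCm38.p6). Scripts were tested on simulated data. Figures were drawn with matplotlib 3.10.9 (Python 3.11.15).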

Additional observations from a re-analysis of the deposited data

Results flagged for a closer look

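The genotype difference changed between P3 and P5, by a test of that change itself, in 20 probes (limma, Benjamini-Hochberg adjusted p under 0.05). The 5 of smallest adjusted p changed, as the P5 difference minus the P3 difference in log2, by -6.09 (Z00053032-1), -3.69 (Z00054133-1), 2.45 (Z00072860-1), -4.01 (Z00053387-1) and -3.90 (Z00056322-1). On the P3 arrays the first 3 rest on spots with both channels replaced on all 4 arrays, the fourth on such spots on both Tabby arrays, and the fifth on none. The first 3 passed the filter only through the 2 P5 arrays of 1 genotype. With replaced spots set to missing, only Z00056322-1 of the 5 could be fitted, and it still passed. With normexp and loess, 4 of the 5 changes were smaller by more than 1.5 times, and 1 of the 5 no longer passed.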

How the results depend on the processing

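Over 24 alternatives, 585 of 674 values of the named probes kept direction and call, 89 kept direction and lost the call, and 0 reversed. The probes named for falls and rises had been picked for arrays separated at both stages. On the same ratios, leaving out arrays or changing the filter or block could therefore not reverse their sign, so the 0 is no support. The pooled count of 2431 was 4034 with normexp and loess, 867 with all 20 arrays in 1 model, 11 with the P3 arrays alone, 103 with the P5 arrays alone, and 333 to 848 with 1 array left out; at 2-fold or more, 48 to 173 probes were lower and 5 to 51 higher in Tabby over the settings that kept 8 arrays. The P3 count of 195 was 2421 with normexp and loess, 764 in the deposited value table, 402 in Cy3 alone, 999 with no filter on dim probes, 1787 with the strict filter (both channels), 402 with median-centred arrays, 657 with arrays on 1 scale, 387 with a trended robust fit, and 17 to 89 with 1 array left out. The P5 count of 583 was 1837 with normexp and loess, 1101 with the strict filter, 227 with 20 arrays, and 126 to 322 with 1 array left out. The genotype by stage count of 20 was 99 with normexp and loess, 36 in Cy3 alone, 34 with 20 arrays, 12 with replaced spots missing, and 5 to 12 with 1 array left out. The cause was not tested. Where arrays were left out their number was also smaller, and the part of that number was not tested either.

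Same-numbered arrays did not deviate together across probes (r = -0.025 at P3 and -0.008 at P5). That does not exclude that same-numbered samples were paired. With a replicate block the counts were 93 pooled, 4 at P3, 89 at P5 and 7 for genotype by stage. Where 1 array remained in a group, its spread was taken as that of the other groups. Differences near background are limited by signal, as the bounds show.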
